A study of Equus caballus with 6 samples.

Results

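Annexins and S100 proteins were followed across 6 microdissected regions of horse joint tissue. Members were every non-control probe whose description names, by symbol or full name, 1 of 10 genes: ANXA1, ANXA2, ANXA5, ANXA6, ANXA7, ANXA8, S100A1, S100A4, S100A6 and S100B. The descriptions named 8 of the 10, through 18 probes, out of 13342 named genes on the array. ANXA8 was found only as annexin A8-like 1 and is called ANXA8L1 here. No description named S100A1 or S100A4, so neither is analysed here.

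The series compares the fetal interzone, the layered tissue where a joint will form, with the neighbouring cartilage of the limb and with the depth zones of adult joint cartilage. The 3 fetal groups came from hindlimbs of Equus caballus at gestational day 40: the intermediate interzone, the outer interzone and the transient embryonic cartilage. The 3 adult groups came from articular cartilage of horses aged 15 years, cut by depth from the surface: the superficial 10%, the middle 20 to 30% and the deep 50 to 90%. Each group has 1 single-colour array. No genetic change or drug treatment is named for any group. All groups share frozen sectioning, cresyl violet stain, laser capture and a PCR-based amplification of the RNA (SuperAmp). How many animals were used, and whether regions share one, is not given in the sources used here. Of the 6 arrays, the 3 fetal ones lie on 1 slide and the 3 adult ones on another, so slide and stage cannot be told apart.

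Annexins are proteins that bind acidic phospholipids of membranes when calcium rises. They share a core of repeated domains, each built to hold calcium. S100 proteins are small calcium sensors of another fold, the EF hand, and several of them clasp the tails of particular annexins. In cartilage, annexins are known from matrix vesicles, the membrane particles in which mineral first forms, and S100A1 and S100B are known as products of differentiating chondrocytes that SOX proteins switch on.

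The 6 annexin probes that carry the levels described here are shown because they read the coding part of each transcript. They are the 60-base sequences of the scanner files, 5′ to 3′. Capitals mark codons, in an open frame found by pattern search, of a conserved stretch of the annexin repeat: the calcium-binding loop in ANXA1 and ANXA6, and the end of the repeat in the others.
ANXA1: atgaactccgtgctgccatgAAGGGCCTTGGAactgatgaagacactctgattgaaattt
ANXA2: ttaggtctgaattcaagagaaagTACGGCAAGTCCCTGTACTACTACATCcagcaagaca
ANXA5: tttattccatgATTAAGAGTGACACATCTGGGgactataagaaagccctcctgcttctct
ANXA6: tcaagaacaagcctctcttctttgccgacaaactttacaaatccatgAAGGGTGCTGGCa
ANXA7: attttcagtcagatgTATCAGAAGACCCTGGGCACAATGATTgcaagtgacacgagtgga
ANXA8L1: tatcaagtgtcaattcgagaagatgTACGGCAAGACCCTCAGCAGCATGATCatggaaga
The marked stretches of ANXA2, ANXA7 and ANXA8L1 belong to the same part of the repeat. S100A6 had 5 probes that overlap one another by 56 to 59 bases, so they are readings of 1 site rather than independent sites. The 2 S100B probes, from a description that reads S100-B-like and carries the gene number of S100B, do not overlap.

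Levels below are log2 of the processed signal, scaled to the 75th percentile of the 1765 probes called well above background everywhere. A level can be set against another region on the same probe, and not against another gene. A member is called above background in a region when the scanner software flags its reported probe, the one with the highest mean over the arrays. Each region has 1 array, so differences lack replicates and carry no p-values. A difference carries 2 measures of error. The spot error was near 0.20 log2 for a single-spot probe and 0.10 for S100A6. The pooled SD between probes of 1 gene ran from 0.33 to 1.04 log2 by comparison. Where a member was above background on 1 side only, the difference is a bound, taken against the lowest signal called above background on the dim array.

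Detection differed by stage and by zone. Between 36.94% and 44.6% of probes were above background on the fetal arrays, against 26.43% in the adult superficial, 8.4% in the adult middle and 10.85% in the adult deep zone. Of the 8 members, 6, 6 and 7 were above background in the intermediate interzone, outer interzone and transient cartilage, and 7, 2 and 2 in the superficial, middle and deep zones. GDF5, the gene that marks the interzone, was above background in both interzone layers and on no other array. All 6 chondrocyte markers found on the array were above background in transient cartilage. Some of these markers were missing on the adult arrays. COL2A1, the main cartilage collagen, and MATN1 were not well above background on any of the 3 adult arrays, while SOX9 and COMP were above it on all 6.

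**Figure D1:**
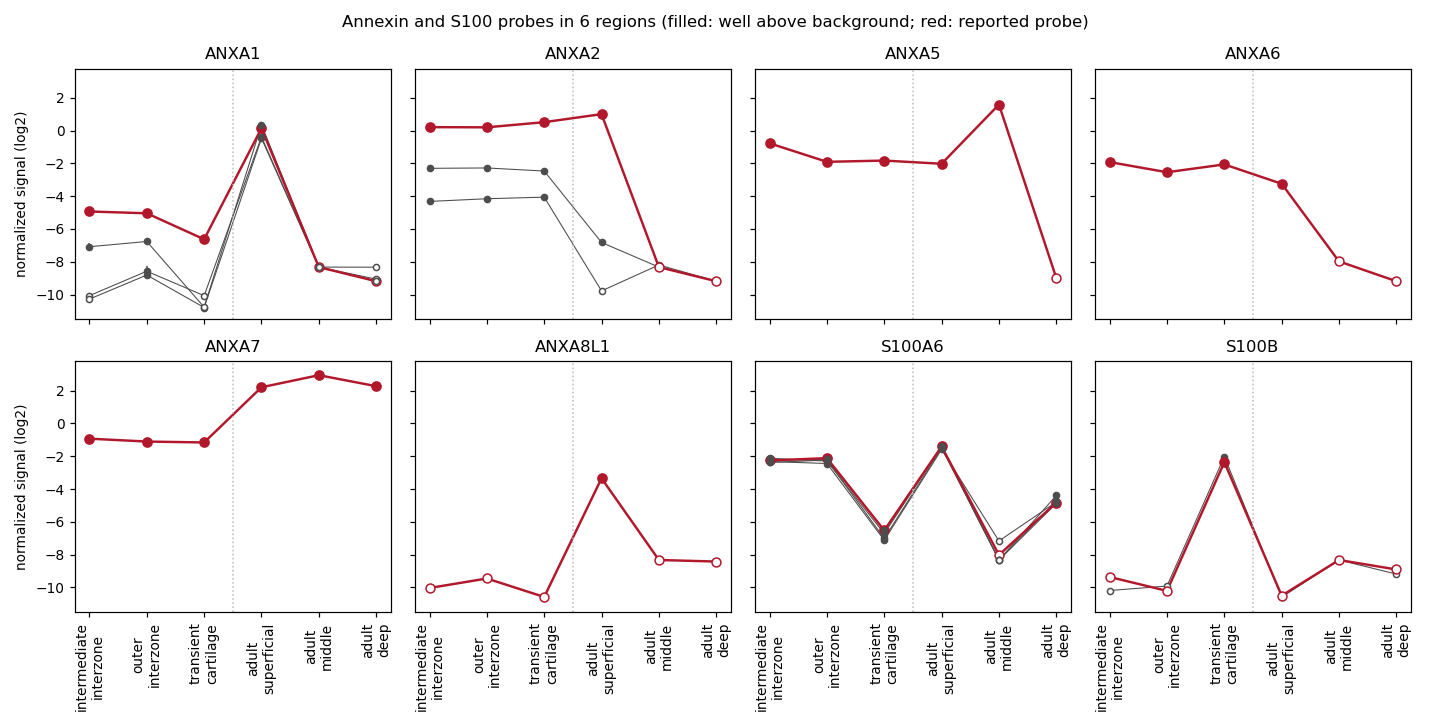
Normalized signal (log2, vertical axis) of each probe of the 8 members in the 6 regions (horizontal axis), with the reported probe in red, other probes in grey and bars for the spot error, mostly smaller than the symbols. Filled symbols are well above background and hollow ones are not. S100B stands out in transient cartilage, S100A6 dips there, ANXA7 is higher on all 3 adult arrays, and the 3 ANXA2 probes part in the superficial zone.

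The 2 S100 members ran opposite ways between the interzone and the transient cartilage. S100A6, calcyclin, a calcium sensor found in proliferating and mesenchymal cells, read -2.26 in the intermediate interzone and -2.12 in the outer interzone, but -6.52 in transient cartilage. Both interzone layers were far above the cartilage and close to each other. The difference from transient cartilage was 4.26 log2, or 19.2-fold, for the intermediate layer and 4.41 log2, or 21.2-fold, for the outer layer. All 5 overlapping probes gave it, between 4.23 and 4.79 log2 for the intermediate and between 4.32 and 4.78 for the outer layer. It exceeded both the spot error of 0.10 and the pooled SD between probes of 0.54 and 0.51 log2. The layers differed from each other by -0.14 log2, within the pooled SD between probes of 0.55. In captured tissue, fewer cells of a type and less RNA per cell cannot be told apart.

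S100B, the S100 protein of chondrocytes and glia, was above background in transient cartilage and in no other region. Its reported probe gave a processed signal of 832 there against 3.65 and 3.71 in the intermediate and outer interzone, and between 1.58 and 1.86 in the 3 adult zones. The other probe gave the same picture, with a signal of 1050 in transient cartilage and no call elsewhere. S100B was at least 50.6-fold lower in the intermediate and at least 95.6-fold lower in the outer interzone than in transient cartilage. These bounds shrank to 4.19-fold and 15.1-fold with normexp background correction. On the normalized scale the probes read -2.36 and -2.02 in transient cartilage, 0.34 log2 apart.

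Marker lists of other cells and regions were read in the fetal regions too, and not all of them moved with these differences. A summed level is log2 of the scaled signals of a list's reported probes added together. It includes genes at background and follows the brightest probe. Where 0 genes of a list were above background, it reads background signal alone and is no level of the markers. Of the markers of Schwann cells and glia, another source of S100B, SOX10, CDH19, ERBB3 and GFAP were not well above background in any region. Skeletal muscle markers were above background for 6 of 8 in transient cartilage, with DES and TNNT3 seen there alone, against 4 of 8 in each interzone layer, and their summed level ran from -1.09 to 0.02 log2 over the fetal regions. Fibroblast and tendon markers were above background for 2, 3 and 1 of 4 genes in the intermediate interzone, outer interzone and transient cartilage, at summed levels of -1.64, -0.52 and -4.95 log2, with TNMD at background throughout. Interzone markers were above background for 7, 7 and 5 of 8, at summed levels of 4.76, 4.12 and 0.09 log2. Chondrocyte markers went the other way, at summed levels of 1.39, 2.20 and 5.87 log2. Macrophage and neutrophil markers were above background for 4 of 6 in each fetal region, at summed levels of -1.91, -2.63 and -3.59 log2, with AIF1 9.91-fold higher in the intermediate layer than in transient cartilage and CD14 and ITGB2 at background. The dendritic markers were above background for 1, 1 and 0 of 3, at summed levels of -4.13, -2.55 and -9.43 log2; the 1 gene was CD83, at least 28.0-fold and 85.8-fold above transient cartilage, with FLT3 and BATF3 at background. Epithelial markers were above background for 0, 2 and 0 of 5, at summed levels of -7.38, -2.01 and -8.04 log2, KRT17 and EPCAM being seen in the outer layer at least 113-fold and 10.5-fold above transient cartilage. Of 2 erythroid markers HBB was seen in each fetal region, 4.94-fold higher in the intermediate layer than in transient cartilage, with ALAS2 at background and summed levels of -2.32, -5.98 and -4.59 log2. Endothelial markers were above background for 0 of 5 in every fetal region. The part of these lists in the S100A6 and S100B differences was not tested.

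SOX9, which with SOX5 and SOX6 is known to drive S100A1 and S100B in chondrocytes, read -2.78 in the intermediate layer, -0.95 in the outer layer and 0.56 in transient cartilage. The intermediate layer was 10.1-fold below transient cartilage, and the outer layer minus transient cartilage was -1.51 log2. In the adult zones SOX9 read -1.81, 0.48 and -0.96 from superficial to deep, where S100B was not above background. SOX5 was not above background in any region, and SOX6 was not found by name.

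ANXA2, ANXA6 and ANXA7 differed little among the fetal regions. ANXA2, the annexin that pairs with S100A10 and organises membrane and actin, read 0.21, 0.20 and 0.51 in the intermediate interzone, outer interzone and transient cartilage. ANXA6, a large annexin of membranes and matrix vesicles, read -1.92, -2.54 and -2.07. ANXA7, an annexin linked to membrane fusion, read -0.93, -1.11 and -1.16. For these genes the fetal regions were close to one another: no neighbours in the order of their fetal levels were apart by more than the pooled SD between probes. For ANXA6 the highest and lowest fetal regions, the intermediate and outer interzone, were 0.62 log2 apart, just past the pooled SD of 0.55.

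ANXA5, the annexin used as a stain for exposed phosphatidylserine and an abundant protein of matrix vesicles, read -0.78 in the intermediate layer, -1.91 in the outer layer and -1.83 in transient cartilage. The intermediate layer was the high one, by 1.05 log2 (2.08-fold) over transient cartilage and 1.13 log2 (2.19-fold) over the outer layer. Both exceed the pooled SD between probes (0.54 and 0.55) and neither reaches 4-fold. The processed signals before scaling were 1400, 1170 and 1200, so the arrays' scaling adds to the size. Under the alternatives the first difference ran from 0.51 to 1.46 log2 and the second from 0.77 to 1.72.

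ANXA1, a mediator of the anti-inflammatory action of glucocorticoids, read -4.93, -5.04 and -6.63 in the same order. It was 1.70 log2 (3.24-fold) higher in the intermediate and 1.59 log2 (3.00-fold) higher in the outer interzone than in transient cartilage. Under the alternatives the first ran from 1.15 to 1.82 log2 and the second from 0.61, with normexp, to 1.97. The fetal readings of ANXA1 are low and its probes did not agree there. Above background were 2, 4 and 1 of its 4 probes, with readings up to 5.34 log2 apart in 1 region. The difference against transient cartilage rests on the reported probe alone.

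At 4-fold, 2 of the 7 members that could be compared were apart between the intermediate interzone and transient cartilage, S100A6 higher and S100B lower. Over all genes measured on both arrays, 14.7% were at least 4-fold higher and 6.64% lower; of genes above background on either array, 11.4% were so in the intermediate interzone only and 26.7% in transient cartilage only. The median difference of the 6 measured members was 0.64 log2, against 0.36 over 4200 genes. The same 2 members were apart for the outer interzone, where 10.6% of genes were 4-fold higher, 8.33% lower, 15.0% seen in the outer interzone only and 19.1% in transient cartilage only. The members' median was -0.01 log2 against 0.08 over 4671 genes. Between the interzone layers 0 of 6 members were 4-fold apart, where 11% of genes were higher in the intermediate layer, 7.32% lower, 12.4% seen there only and 23.8% in the outer layer only. The members' median was 0.14 log2 against 0.21 over 4164 genes. These comparisons share arrays, and their values are not independent. The split of all genes followed the scaling. For the intermediate interzone against transient cartilage 619 genes were 4-fold higher and 279 lower, against 387 and 487 with the 50th percentile and 317 and 37 with normexp. For the outer interzone the split was 493 and 389, against 661 and 280 with the authors' values. Between the layers it was 456 and 305, against 340 and 413 with the 50th percentile and 342 and 16 with normexp. S100A6 and S100B kept their directions and stayed past 4-fold against transient cartilage under each of these.

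**Figure D2:**
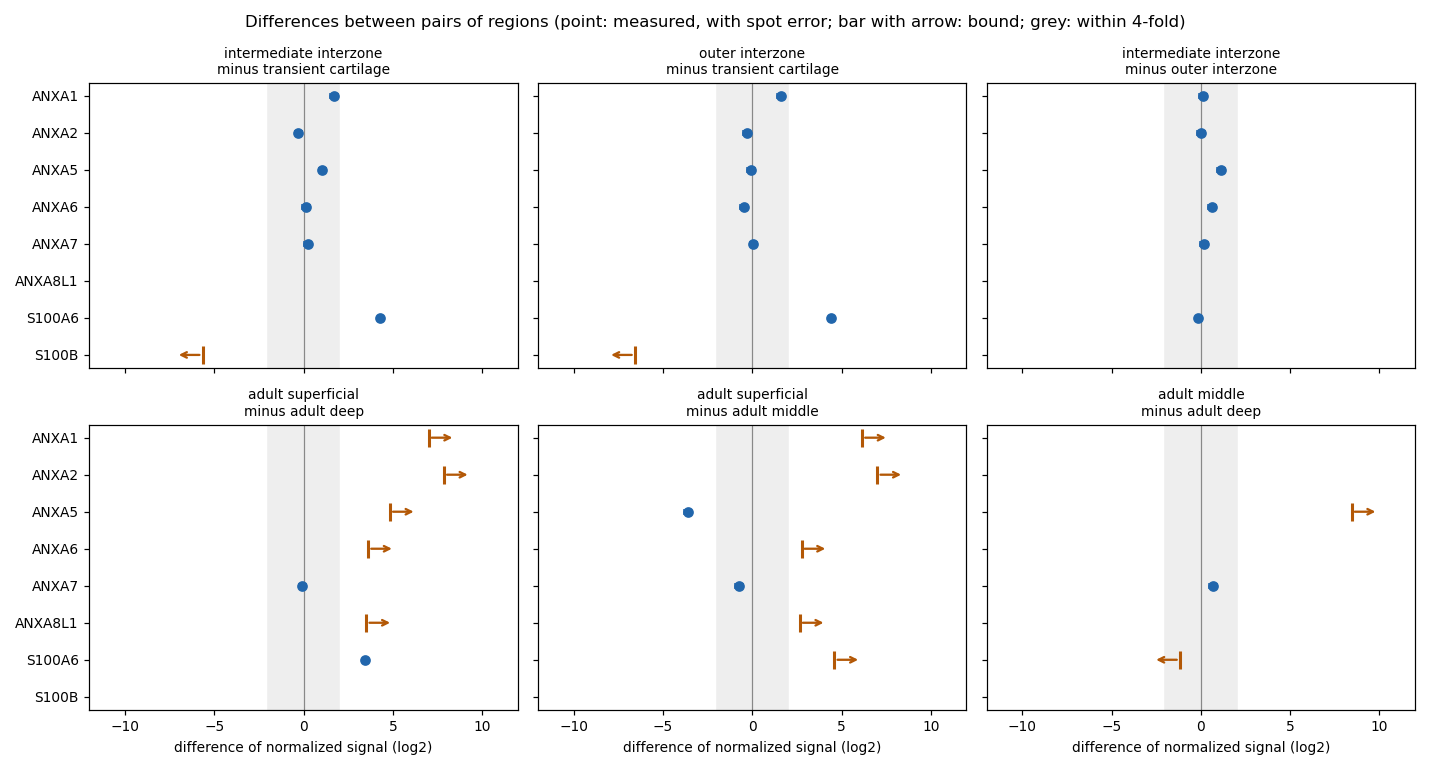
Difference of normalized signal (log2, horizontal axis) of each member (vertical axis) for the 6 pairs of regions. Points with bars are measured differences with their spot error, bars with an arrow are bounds, and grey marks the range within 4-fold. S100A6 lies above 4 and S100B below -5 against transient cartilage, and in the adult pairs that include the superficial zone 5 members are bounds on the higher side.

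In adult cartilage the superficial zone, the layer at the gliding surface, held most members. ANXA1 read 0.14 there and was not above background in the middle or deep zone. All 4 of its probes gave a superficial level, between -0.47 and 0.35, and 0 of 4 were above background in either deeper zone. Its level was at least 71.2-fold above the middle and at least 129-fold above the deep zone. These bounds depend on the processing and were 10.0-fold and 17.1-fold with normexp. On the reported probe ANXA1 in the superficial zone was also 33.8-fold above its next highest region, the intermediate interzone, across the 2 slides. On the other 3 probes the next highest region was the outer interzone, at -6.76, -8.58 and -8.81.

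ANXA2 read 1.00 in the superficial zone and was not above background in the middle or deep zone, bounds of at least 129-fold and 233-fold. These bounds rest on the reported probe alone, since its 3 probes disagreed on the superficial level. They shrank to 17.2-fold and 29.4-fold with normexp. The reported probe put the superficial zone 0.49 log2 above transient cartilage, within the pooled SD between probes of 0.72. A second probe read between -2.47 and -2.28 in the fetal regions but -6.82 in the superficial zone, where the lowest signals called above background read -6.01 on the middle and -6.86 on the deep array, so it gives no such excess over either. The third read between -4.32 and -4.06 in the fetal regions and was not above background in the superficial zone. Whether ANXA2 was higher in the superficial zone than in the deeper zones, and lower than in the fetal regions, therefore depends on the probe, and why was not tested. All 3 probes were at background in the middle and deep zones.

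ANXA6 read -3.25 in the superficial zone, at least 6.79-fold above the middle and at least 12.3-fold above the deep zone. ANXA8L1, a close relative of the epithelial annexin ANXA8, was above background in the superficial zone and nowhere else, at -3.34 and a processed signal of 252. Its bounds were at least 6.34-fold over the middle and at least 11.5-fold over the deep zone. These are the smallest bounds among the annexins seen in the superficial zone alone of the adult zones. With quantile normalization the ANXA6 and ANXA8L1 bounds over the deep zone shrank to 0.20 and 0.12 log2, and with normexp background correction those over the middle zone shrank to 0.44 and 0.05 log2.

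S100A6 read -1.41 in the superficial zone, was not above background in the middle zone and read -4.83 in the deep zone. Superficial exceeded deep by 3.42 log2 (between 2.99 and 3.42 over its 5 probes), past the pooled SD of 1.04. It was at least 24.3-fold above the middle zone. The middle zone was at least 2.27-fold below the deep zone, so the gene was seen at both ends of the depth and not between. The middle array had the fewest probes above background, and its lowest signal called above background read -6.01. The bound of middle below deep shrank to 1.52-fold with quantile normalization, and none could be given with normexp. With quantile normalization the superficial excess over deep was 1.19 log2, and over middle 1.80 log2.

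ANXA5 departed from this order. It read -2.03 in the superficial zone and 1.58 in the middle zone, and was not above background in the deep zone. Superficial minus middle was -3.61 log2, so the middle zone was 12.2-fold higher, and it was at least 349-fold above the deep zone. That bound shrank to 45.2-fold with normexp. The processed signals were 629, 1520 and 1.75. The superficial zone was at least 28.6-fold above the deep one, or at least 2.75-fold with quantile normalization, which ends that call. In the authors' deposited table, which divides each array by its median, superficial minus middle was -1.66 log2, less than 4-fold.

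ANXA7 differed from the other members in being above background in every adult zone, at 2.20, 2.94 and 2.27 from superficial to deep. Superficial minus deep was -0.07, superficial minus middle -0.74 and middle minus deep 0.67 log2, each inside the pooled SD between probes of its pair (0.78 to 1.04). With the authors' values these were 1.02, 1.21 and -0.19 log2, so the order of the zones depends on the scaling. S100B was above background in none of the adult zones.

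At 4-fold, 6 of 7 members were higher in the superficial than in the deep zone and 0 were lower. Of these 6, S100A6 was measured on both sides and 5 were bounds. Of all genes measured in both zones, 11.1% were 4-fold higher and 21.1% lower in the superficial zone, and of genes above background in either, 61.1% were seen in the superficial zone only and 9.26% in the deep zone only. For superficial against middle, 5 of 7 members were higher, all as bounds, and ANXA5 was lower. There 9.49% of measured genes were higher and 37.0% lower, with 68.5% seen in the superficial zone only and 7.29% in the middle zone only. Being seen in the superficial zone only was thus the case for most genes above background in either zone of a pair. For middle against deep, 1 of 3 members, ANXA5, was 4-fold apart, against 12.4% of genes higher, 7.97% lower, 22.7% seen in the middle zone only and 38.8% in the deep zone only. The medians of measured members were 1.68 log2 (2 members), -2.17 (2 members) and 0.67 (1 member), against -0.83, -1.50 and 0.78 over all measured genes. With the authors' values the median over all genes moved to 0.25, 0.44 and -0.08 log2, and the split of genes 4-fold higher to lower turned from 135 and 258 to 222 and 118 for superficial against deep, from 92 and 359 to 231 and 73 for superficial against middle, and from 98 and 63 to 44 and 94 for middle against deep. With quantile normalization the first 2 splits went the other way, to 56 and 720 and to 37 and 709.

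Markers of other cells were also unequal over depth. Fibroblast and tendon markers were above background for 2, 0 and 1 of 4 genes from superficial to deep. Their summed levels were 0.49, -5.60 and -4.18 log2, where the -5.60 holds background signal alone. DCN read 0.43 in the superficial zone and TNMD was at background in all. Macrophage and neutrophil markers were above background for 3, 2 and 2 of 6, at summed levels between -5.38 and -2.07 log2, with CD14 and ITGB2 at background in all. Of the epithelial markers 1, 1 and 0 of 5 were above background, with KRT14 in the superficial and KRT17 in the middle zone. Of the endothelial markers, VWF was the 1 of 5 seen in each adult zone, and PECAM1 and CDH5 were at background. The part of these cells, and of the low detection on the middle and deep arrays, in the differences over depth was not tested.

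ANXA7 was the 1 member above background on all 6 arrays, so it alone gives a measured difference by stage. Its fetal levels lay between -1.16 and -0.93 and its adult levels between 2.20 and 2.94, without overlap. Before any scaling, its processed signals were 1260, 2040 and 1910 in the fetal regions and 11800, 3890 and 4300 in the adult zones, so the adult arrays were higher there too, although fewer probes were above background on them. The means of 3 regions each differed by 3.54 log2, or 11.6-fold, with a pooled SD between probes of 0.33. Of the 562 genes measured on all arrays, 14.9% were at least 4-fold higher and 9.61% lower in the adult mean, and 23.8% were higher and 10.3% lower on every adult array. The median over these genes was 0.56 log2, so ANXA7 was 2.97 log2 above it, with 5.16% of genes above ANXA7.

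The size of that difference followed the scaling. Over 5 other scalings and corrections it ran from 2.99 to 6.24 log2, while the median of all genes ran from 0.02 to 3.27. The split of genes 4-fold higher to lower, 84 and 54, became 436 and 3 when scaled over all probes and 60 and 72 with the authors' values. Relative to that median ANXA7 was 2.97 log2 higher under each of the 3 that shift whole arrays, as such shifts cannot change it. It was 2.53 log2 higher with normexp and 1.01 with quantile normalization, where 27.76% of genes exceeded it. Each of the 5 kept every adult value above every fetal one. Leaving out any 1 array gave 9.87-fold to 12.7-fold. Without the adult superficial array, ANXA2, ANXA6 and ANXA1 could be given as bounds of -6.74, -4.26 and -0.90 log2, lower in the adult mean. Without the deep array ANXA5 was 1.29 log2 (2.44-fold) higher in the adult mean, and without the middle array S100A6 was 0.52 log2 higher.

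Among 522 genes compared over the 6 arrays, the 3 whose levels followed ANXA7 most closely by Pearson's r were ANGPTL7 (0.998), EQUCABV1R918 (0.997) and IQGAP1 (0.987). ANGPTL7, a secreted angiopoietin-like protein, read -7.02, -7.33 and -7.09 in the fetal regions and 1.54, 2.61 and 1.39 in the adult zones. EQUCABV1R918 was dim throughout, at -7.63, -8.02 and -7.99 in the fetal regions and -5.66, -4.99 and -5.46 in the adult zones. The lowest signals called above background read -8.02, -8.94 and -8.98 on the fetal arrays. In all, 47 genes had an r of at least 0.9. The 6 points share 2 slides that divide by stage, so these values describe a stage pattern that many genes have.

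**Figure D3:**
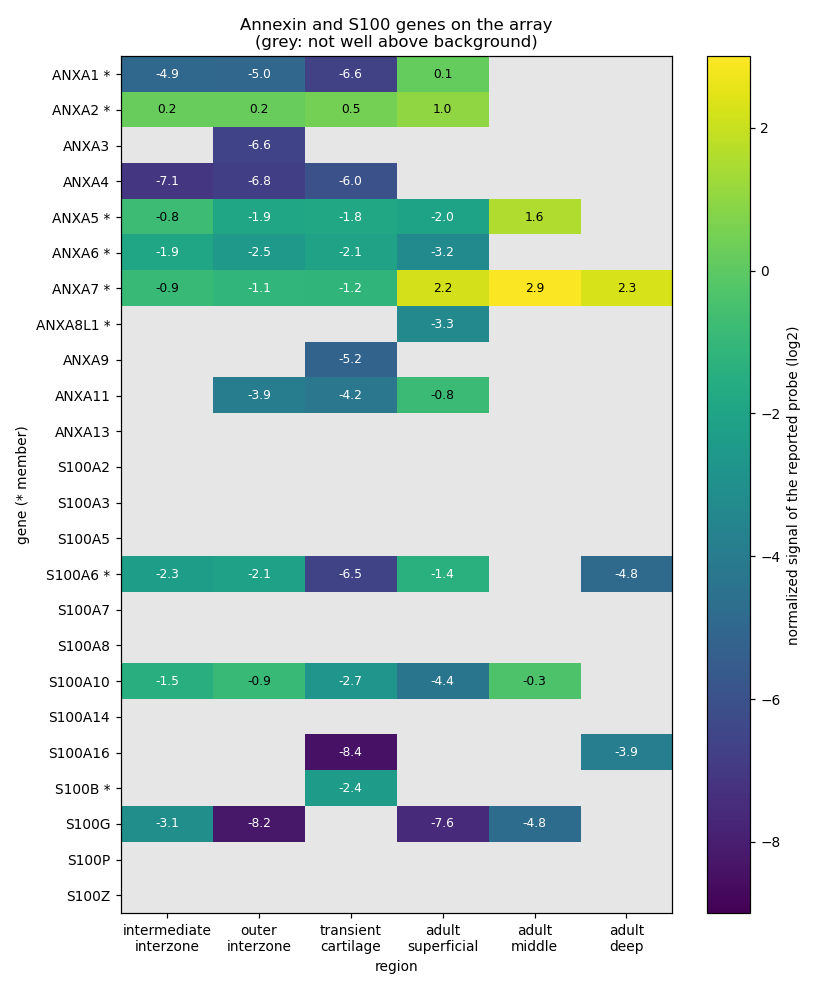
Normalized signal (log2, number and colour) of the reported probe of each annexin and S100 gene named on the array (vertical axis; members marked with an asterisk) in the 6 regions (horizontal axis). Grey marks genes not well above background. The middle and deep columns are mostly grey, and ANXA7 is the only row filled in all 6 regions.

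Of 21 other genes of the 2 families looked for, 16 were on the array and 8 were above background on at least 1 array, 1 of these, S100A7, through a probe other than the reported one. Each annexin among them was seen in 1 to 3 regions. ANXA9 was seen in transient cartilage only, at least 7.06-fold above the intermediate and at least 13.3-fold above the outer interzone. ANXA3 was seen in the outer interzone only, at least 5.33-fold above transient cartilage. ANXA11 read -3.90, -4.25 and -0.80 in the outer interzone, transient cartilage and superficial zone, and was not above background elsewhere. Transient cartilage exceeded the intermediate interzone by at least 13.7-fold, and the superficial zone was at least 66.9-fold above the deep and at least 37.0-fold above the middle zone. ANXA4 read between -7.12 and -6.02 in the fetal regions and was at background in the adult.

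The other S100 genes did not share 1 pattern with S100A6. S100A10, the partner of ANXA2, read -1.46, -0.86 and -2.75 in the intermediate interzone, outer interzone and transient cartilage, -4.36 and -0.33 in the superficial and middle zones, and was not above background in the deep zone. The middle zone exceeded the superficial by 16.3-fold and the deep by at least 92.6-fold, an order like that of ANXA5 and unlike that of ANXA2. S100G, the calcium-binding protein of intestine, was 35.3-fold higher in the intermediate than in the outer interzone and at least 60.1-fold higher than in transient cartilage. S100A16 was seen at -8.40 in transient cartilage and -3.86 in the deep zone, at least 21.3-fold above the superficial zone. Genes next to S100A6 in the chromosome order of the horse RefSeq table (assembly TB-T2T), S100A5 and S100A7, were not well above background on their reported probes in any region.

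In this list 3 of 5 genes that could be compared were 4-fold apart between the intermediate interzone and transient cartilage (1 higher, 2 lower), 2 of 7 for the outer interzone (1 higher, 1 lower) and 2 of 5 between the interzone layers (1 higher, 1 lower). In the adult, 3 of 3 were apart between superficial and deep (2 higher, 1 lower), 3 of 3 between superficial and middle (1 higher, 2 lower) and 2 of 2 between middle and deep (1 higher, 1 lower). By stage, 0 of 1 was apart. These counts, over few genes, stand beside the shares of all genes given above for each pair, for the first pair 14.7% and 6.64% of measured genes and 11.4% and 26.7% seen on 1 side only.

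Partners of the 2 families and related calcium-binding proteins were found for 14 of 19 genes, of which 13 were above background somewhere. MYH9, the non-muscle myosin heavy chain that S100 proteins bind, was 28.9-fold higher in the intermediate and 5.63-fold higher in the outer interzone than in transient cartilage, the direction of S100A6. In the adult MYH9 had superficial minus deep at -1.45 and superficial minus middle at -1.29 log2, signs opposite to those of S100A6. The medians over all measured genes were -0.83 and -1.50 log2 in these pairs, and 0.25 and 0.44 with the authors' values. These signs of MYH9 therefore cannot be told apart from the scaling. The adult processed signals of MYH9 were low, at 17.4, 8.44 and 16.5 from superficial to deep. CACYBP, the calcyclin-binding protein, did not follow S100A6: it read -4.09, -3.83 and -3.66 in the fetal regions. AHNAK, a large scaffold bound by ANXA2 with S100A10, was above background on all 6 arrays, between -0.02 and 1.81. TLR4, a receptor for some S100 proteins, exceeded its transient cartilage signal by at least 5.89-fold in the intermediate interzone, at a processed signal of 28.0. It was not above background in the outer interzone, where S100A6 was as high as in the intermediate layer. TLR4 was highest in the adult superficial zone, as S100A6 was, at -1.58 and a processed signal of 859. There it was at least 39.1-fold above the deep and 21.6-fold above the middle zone. Most genes above background in either zone of these pairs were likewise seen in the superficial zone only, 61.1% and 68.5%.

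For these partners 3 of 11 were 4-fold apart between the intermediate interzone and transient cartilage (2 higher, 1 lower), 2 of 12 for the outer interzone (2 higher) and 3 of 13 between the layers (2 higher, 1 lower). The lower one was SGTA in both cases, 4.01-fold below transient cartilage and 5.60-fold below the outer layer. For the outer interzone CAPN1 was higher beside MYH9, by at least 5.69-fold. Between superficial and deep 7 of 11 were apart (6 higher, 1 lower), led by CAST, the calpain inhibitor, at least 210-fold higher on its reported probe, the 1 of its 3 probes above background there, and CAPN2, a calpain, at least 84.2-fold higher. All 6 were bounds, in a pair where 61.1% of genes were seen in the superficial zone only. Between superficial and middle 6 of 10 were higher, again as bounds, where that share was 68.5%. PDCD6, a calcium sensor that binds ANXA7 and ANXA11, was 8.83-fold lower in the superficial than in the deep zone and at least 369-fold lower in the middle than in the deep zone, the 1 of 3 partners apart in that pair. By stage 0 of 2 were apart.

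Genes of matrix vesicles and mineral formation, a list that counts ANXA2, ANXA5 and ANXA6 among its 17, were found for 10. ALPL, the alkaline phosphatase of matrix vesicles, was not above background on any array. ATP2B1, a calcium pump, read -6.19, -5.69 and -3.21 in the intermediate interzone, outer interzone and transient cartilage, 7.92-fold and 5.57-fold lower in the interzone layers. In the superficial zone 8 of the 10 were above background, against 3 in the middle and 0 in the deep zone. The phosphoproteins IBSP and SPP1 read -1.05 and -0.56 in the superficial zone and were at least 56.4-fold and 79.2-fold above the deep zone. SPP1 read -0.56 in the middle zone as well, where IBSP was at background.

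In that list 1 of 6 genes was 4-fold apart between the intermediate interzone and transient cartilage (lower), 2 of 6 for the outer interzone (both lower) and 0 of 5 between the layers. The 2 lower in the outer interzone were ATP2B1 and CA2, the latter by at least 5.80-fold. In the adult, 7 of 7 were higher in the superficial than in the deep zone, 4 of 7 higher and 1 lower against the middle zone, and 3 of 3 higher in the middle than in the deep zone. All of the higher calls were bounds, and 61.1%, 68.5% and 22.7% of all genes were likewise seen on that side only. None could be given by stage.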

How the data were processed

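The authors deposited 6 scanner files, which name Agilent Feature Extraction 10.7.3.1 in their headers. Per the file headers, the processed signal is a linear, background-corrected intensity, and spots carry flags for signal above background, saturation and outliers. The deposited series table holds a ratio, the processed signal divided by the array's median, with a log2 correlation to the scanner values of 0.999998 or more; this table served as an alternative. Of 45220 spots, 1417 controls and 3 to 80 outlier spots per array were left out, leaving 43603 probes; 0 spots were saturated. Steps before scanning that could shift levels are the small captured samples and the PCR amplification.

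Signals were scaled to the 75th percentile over the 1765 probes above background on all arrays and taken to log2. Probes were named from gene number (13535), symbol (9034), older symbol (219) or accession (247) through the RefSeq table of horse assembly TB-T2T; 20568 had no name. A gene was reported by the probe with the highest mean over the 6 arrays. All members are named in every comparison. Of each other list, genes 4-fold apart are counted. The plan was to name up to 4 with the largest difference, but not all of these are named in each comparison. Some of a list's other genes were named after their values were seen. For ANXA7 the 3 genes of highest Pearson's r are named. Members and lists were chosen with earlier results of these data known. Some genes of the Schwann cell and glial marker list are not reported here. Python 3.11.15, numpy 2.4.6, pandas 2.3.3 and limma 3.58.1 (R 4.3.3, normexp with offset 50) were used, and the steps were tested on simulated data. With 1 array per group the number of arrays limits the precision, and no test was made. Alternatives were 2 other percentiles, quantile normalization, normexp, the authors' values, the mean over probes, no filter on dim genes, a 2-fold threshold, leaving out each array, and, chosen after seeing the data, scaling over the probes above background on both arrays of a pair.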

Additional observations from a re-analysis of the deposited data

How the results depend on the processing

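All 18 differences of 4-fold or more kept their sign under every alternative that gave a value. Most of the 18 were bounds. Except with no filter on dim genes, a bound that vanishes is left out and cannot reverse. Its kept sign is therefore no measure of stability. The measured ones among the 18 could have changed sign and did not. Of 20 smaller differences, 12 changed sign under at least 1 alternative. S100A6 stayed 7.98-fold or more above transient cartilage in both interzone layers, and S100B 4.19-fold or more below it. With a 2-fold threshold the count of members apart rose from 2 to 4 between intermediate interzone and transient cartilage, from 0 to 1 between the interzone layers and from 1 to 2 between middle and deep. With quantile normalization the count fell from 6 to 2 between superficial and deep and from 6 to 3 between superficial and middle, where ANXA6 and ANXA8L1 could not be given; with normexp the latter was also 3. The authors' values, and no filter on dim genes, each gave 2 in place of 1 between middle and deep. By stage the count was 3 in place of 1 with no filter on dim genes, and between 1 and 3 when each array was left out, the 3 coming without the adult superficial array. The cause of the changes with normalization was not tested. Of the other values for single members, 70 moved and 236 stayed within the spread. Many of the 236 could not move. The mean over probes leaves every bound and every single-probe member as it was, and no filter on dim genes leaves every measured difference as it was. The count is therefore no measure of stability. The middle and deep arrays, with few probes above background, limit most adult differences to bounds, and the slides cannot be told apart from the stages. No paired analysis was possible because each group has 1 array.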
